A study of Homo sapiens with 6 samples.

Results

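The miR-29 family was followed in small RNA sequencing of TGF-β1-treated respiratory epithelial cells, and its members were taken by name from the list of mature miRNAs. There were 6 members among 2588 miRNAs, namely hsa-miR-29a-3p, hsa-miR-29b-3p and hsa-miR-29c-3p, and the opposite-arm products hsa-miR-29a-5p, hsa-miR-29b-1-5p and hsa-miR-29c-5p. Of the 6 members, 1 (hsa-miR-29a-3p) was abundant and the other 5 were scarce in every library. After 48 h of TGF-β1, hsa-miR-29a-3p was lower than in the untreated library of the same cell line in all 4 comparisons, by 20.5% and 27.9% in A549 at 1 and 5 ng/mL and by 34.9% and 23.8% in BEAS-2B. Of these, only the difference in BEAS-2B at 1 ng/mL passed the fold criterion of the study, under the main scaling.

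Libraries came from A549, a human lung adenocarcinoma line with epithelial features, and BEAS-2B, an immortalised human bronchial epithelial line, both labelled as wild type. Each line received no TGF-β1, 1 ng/mL or 5 ng/mL, in medium that the protocol gives as holding 1% serum, and RNA was taken at 48 h. Each of the 6 groups was a single library of a single line, so no value has a replicate error, and no test of treatment was run, nor a model that takes the lines as replicates of a dose. The intervals cover only the error of counting reads. Depth was 633318 to 900424 counts per library.

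Values were compared as TMM-normalised counts, that is, counts divided by an effective library size that trims extreme miRNAs and then brought to a common size of 749498. On the log2 scale, with 1 added to the normalised count, this is called the normalised data value (ND). The criteria of the study, an ND of at least 8 and a change of at least 1.4-fold, were used here, the ND of the greater of the 2 libraries having to reach 8. An ND of 8 is a normalised count of 255.

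The untreated BEAS-2B library stood apart from the other 5. hsa-miR-21-5p took 35.4% of its reads and from 47.6% to 57.2% of the reads of the others, and its TMM factor was 1.32 against 0.829 to 1.02. As this library is the control of both BEAS-2B comparisons, the ratios of the 3p members that use it are given with their range over scalings. The part of the hsa-miR-21-5p share in those ratios was not tested. Of 7 epithelial marker miRNAs, 6 or 7 had a count in each library and their sum, in CPM (counts relative to the library total), was 300.1, 443 and 475 in A549 at 0, 1 and 5 ng/mL, against 642, 455 and 433 in BEAS-2B, led by hsa-miR-200b-3p, with hsa-miR-205-5p or hsa-miR-203a-3p at 0 in 5 libraries. The 6 blood markers summed to 0 to 11.4 CPM and the 3 muscle markers to 0 to 3.799 CPM. The 5 mesenchymal markers, mostly hsa-miR-143-3p, summed to 198, 1920 and 1825 CPM in A549 at 0, 1 and 5 ng/mL and to 19.0, 107 and 142.1 in BEAS-2B, with hsa-miR-214-3p at 0 in all 6 libraries. In CPM, the mesenchymal sum was above the control where hsa-miR-29a-3p was below it in both lines. The epithelial sum in CPM was above the control in A549 and below it in BEAS-2B. The sums were not compared under TMM. On that scale hsa-miR-200b-3p, which led the epithelial sum, had BEAS-2B log2 ratios to the control of 0.003 (lower dose) and -0.11 (higher dose). The part of these markers in the ratios of hsa-miR-29a-3p was not tested. In bulk RNA, fewer cells that contain a miRNA and less of it per cell cannot be told apart.

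A miRNA is cut from a hairpin precursor, and either arm can be loaded into an Argonaute protein, where bases 2 to 8, the seed, pair with messenger RNAs and lower their output. The miR-29 family is known for repressing collagens, elastin, fibrillin and other extracellular matrix genes, and for being lowered by TGF-β1 through Smad signalling in fibroblasts and in fibrotic lung, kidney, liver and heart. Loss of miR-29 is therefore described as releasing matrix synthesis.

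The 3 members from the 3p arm share their seed and differ in the bases after it. Both are shown here because the seed sets the targets that they share, while the remaining bases let reads be told apart. Sequences are from RefSeq on GRCh38.p14, printed 5′ to 3′ with the seed in capitals.
hsa-miR-29a-3p: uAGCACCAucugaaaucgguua
hsa-miR-29b-3p: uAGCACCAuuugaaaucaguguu
hsa-miR-29c-3p: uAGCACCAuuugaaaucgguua

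Among 2281 mature miRNAs matched by name to RefSeq, the seed AGCACCA was held by these 3 only. Counted from 1 at the 5′ end, hsa-miR-29c-3p differs from hsa-miR-29a-3p by the single substitution C10U. hsa-miR-29b-3p differs from hsa-miR-29a-3p by C10U, G18A, U21G and A22U and is 1 base longer, at 23 against 22 bases. Its last bases, AGUGUU, are known as an element that directs it to the nucleus. This hexamer closed 2 of the 2281 mature sequences (0.0877%) and occurred anywhere in 12 (0.526%). How the authors assigned reads that match several members was not stated, so the split between hsa-miR-29a-3p and hsa-miR-29c-3p, which rests on 1 base, is uncertain.

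The opposite-arm members share no seed with the 3p members or with each other, and each of the seeds printed next was held by a single matched miRNA. The product of the other miR-29b hairpin, hsa-miR-29b-2-5p, is not a member but is shown because the 5p arms, unlike the shared hsa-miR-29b-3p, tell the 2 loci apart.
hsa-miR-29a-5p: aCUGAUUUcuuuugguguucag
hsa-miR-29b-1-5p: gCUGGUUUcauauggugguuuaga
hsa-miR-29c-5p: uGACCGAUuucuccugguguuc
hsa-miR-29b-2-5p: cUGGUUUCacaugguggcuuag

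The family is encoded by 4 hairpins in 2 clusters, both on the minus strand. On chromosome 7, hsa-miR-29a-3p lies at chr7:130876748-130876769 and hsa-miR-29b-3p at chr7:130877467-130877489, in hairpins MIR29A and MIR29B1, which are 648 bases apart. On chromosome 1, hsa-miR-29c-3p lies at chr1:207801865-207801886 and the second copy of hsa-miR-29b-3p at chr1:207802450-207802472, in hairpins MIR29C and MIR29B2, which are 503 bases apart. In GENCODE release 29, MIR29A lies in an intron of the same-strand non-coding gene AC016831.6, and MIR29B1 lies in an intron of that gene and overlaps an exon of LINC-PINT. MIR29C and MIR29B2 overlap an exon of MIR29B2CHG, their host gene.

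The match to the seed, TGGTGCT in the DNA letters of the target, was looked for in 3′ untranslated regions to show the pairing that gives the family its known targets. It was present in 14 of 14 matrix genes listed as textbook targets (COL1A1, COL1A2, COL3A1, COL4A1, COL4A2, COL5A1, COL5A2, COL5A3, COL6A3, COL15A1, FBN1, ELN, SPARC and LAMC1). Over all 18975 genes with a 3′ untranslated region of at least 30 bases, 12.2% held it, and 14.2% of the 6885 genes with regions as long as those of the 14. The genes were listed because they are known targets, so the count is a description and not a result about these cells, whose mRNAs were not measured in these libraries. COL5A1 held 4 matches, COL5A3 and ELN 3 each, COL3A1 and FBN1 2 each, and the other 9 genes 1 each. Sites in COL1A1 and COL3A1, the genes of fibrillar collagen I and III, and in FBN1, which encodes the microfibril protein fibrillin, are printed with the seed match in capitals, on the strand of the transcript in GRCh38.
COL1A1, chr17:50184572-50184594, minus strand: tggggagggaatcacTGGTGCTa
COL3A1, chr2:189012001-189012023, plus strand: ttcaaaatgtctcaaTGGTGCTa
COL3A1, chr2:189012441-189012463, plus strand: taaagacgcatgttaTGGTGCTa
FBN1, chr15:48410567-48410589, minus strand: tttatggtacctattTGGTGCTa

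To see how much of the seed each library held, the 3p reads were first summed. hsa-miR-29a-3p made up 25132 of the 25986 miR-29 3p reads over the 6 libraries (96.7%), hsa-miR-29b-3p 758 (2.92%) and hsa-miR-29c-3p 96 (0.369%). The summed 3p level is therefore almost the level of hsa-miR-29a-3p. In A549 the normalised sum was 5720 without TGF-β1, 4573 at 1 ng/mL and 4116 at the higher dose. In BEAS-2B it was 4704, 3031 and 3592. The log2 ratio of the sum to the control was -0.32 and -0.47 in A549, against -0.63 and -0.39 in BEAS-2B.

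hsa-miR-29a-3p, the main carrier of the seed, was read 5289, 4360 and 3409 times in the A549 libraries at 0, 1 and 5 ng/mL and 5946, 2572 and 3556 times in the BEAS-2B libraries. As a share of all reads this was 0.670%, 0.484% and 0.538% in A549, against 0.808%, 0.391% and 0.463% in BEAS-2B, and it ranked between 18 and 24 among all miRNAs. The control was the highest library of each line on either measure.

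**Figure D1:**
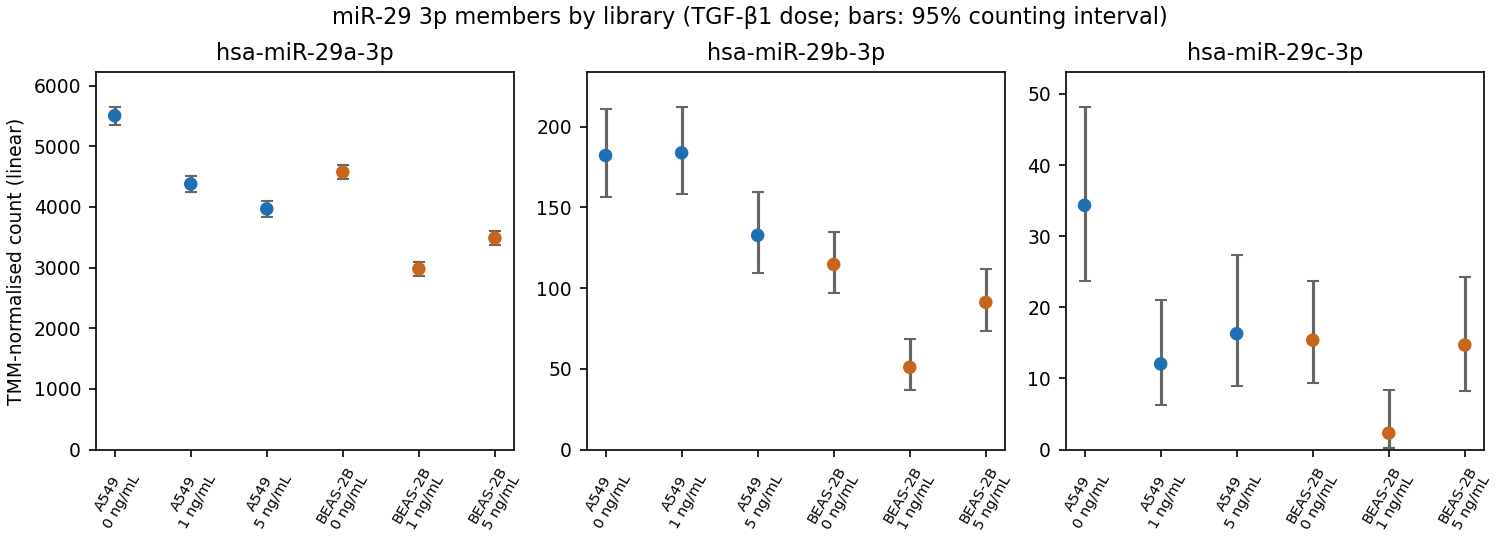
TMM-normalised count (linear axis, 1 panel per 3p member) in each of the 6 libraries, by cell line (A549 blue, BEAS-2B orange) and TGF-β1 dose in ng/mL; points are single libraries and bars the exact 95% Poisson interval for counting error only. hsa-miR-29a-3p is highest in both controls, at 5503 and 4574, while hsa-miR-29b-3p spans 50.9 to 184 and hsa-miR-29c-3p 2.32 to 34.3.

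After normalisation, hsa-miR-29a-3p stood at 5503 (95% interval 5356 to 5654), 4378 (4249 to 4510) and 3967 (3835 to 4103) in A549 and at 4574 (4458 to 4692), 2978 (2864 to 3095) and 3486 (3373 to 3603) in BEAS-2B. The 3 A549 levels stood in the order of dose under this scaling, whereas in BEAS-2B the lowest level was at 1 ng/mL. Depth does not limit these values, since each rests on at least 2572 reads. What a second culture would give is unknown.

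In A549, the log2 ratio of hsa-miR-29a-3p was -0.33 at 1 ng/mL (95% counting interval -0.39 to -0.27) and -0.47 at 5 ng/mL (-0.53 to -0.41). Neither reached 1.4-fold. Of the 6 members, only hsa-miR-29a-3p met the abundance criterion in any library, so the other 5 could not be called at any fold. Thus 0 members were called in either A549 comparison, where 48.9% and 53.2% of the miRNAs that met the criterion were called in either direction. Among these miRNAs hsa-miR-29a-3p had the 44th lowest ratio of 137 at 1 ng/mL and the 38th lowest of 141 at 5 ng/mL. The median ratio of all of them was -0.11 and -0.03.

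In BEAS-2B, the log2 ratio of hsa-miR-29a-3p was -0.62 (-0.69 to -0.55) after the lower dose and -0.39 (-0.45 to -0.33) after the higher dose. It passed the criteria at 1 ng/mL, so the 1 member that could be called was called there. Over the miRNAs that met the abundance criterion, 29.2% of 120 were called and 13.3% were called as lower. At 5 ng/mL 0 members were called, where 36% of 125 were called. Its ratio was the 12th lowest of 120 at 1 ng/mL and the 30th lowest of 125 at 5 ng/mL, and the medians were -0.04 and -0.08. Thus hsa-miR-29a-3p stood in the lower part of the ratios in all 4 comparisons and nearest to the bottom in BEAS-2B at 1 ng/mL. Both doses of a line share its control library, so the 4 comparisons are not independent.

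**Figure D2:**
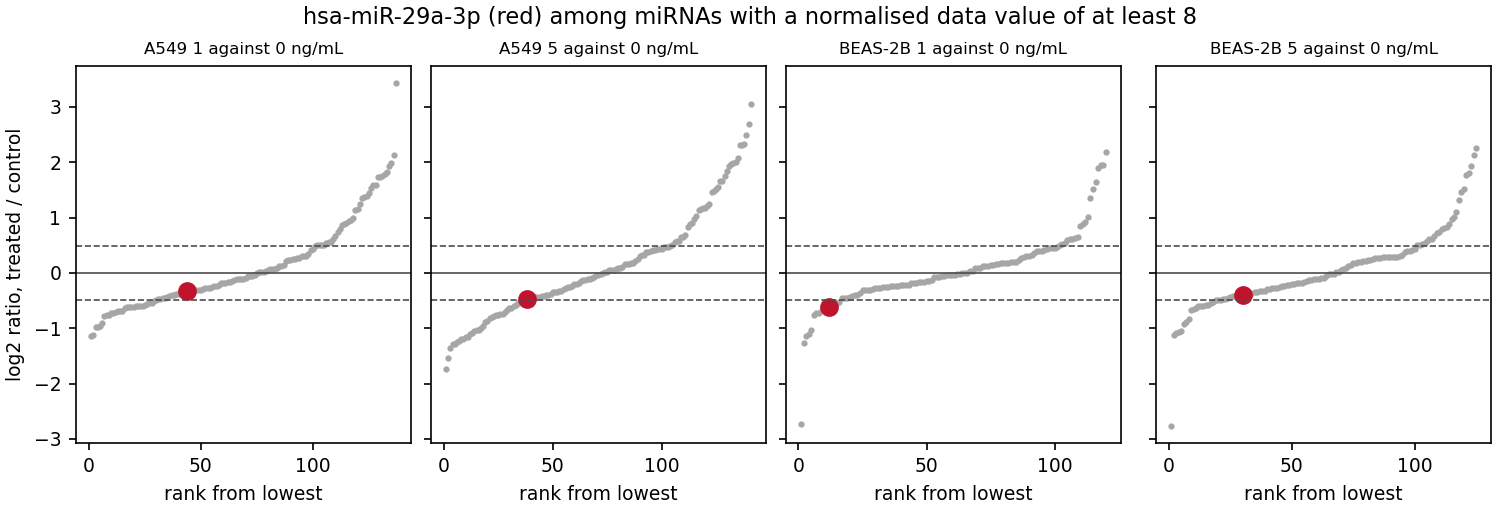
Log2 ratio of treated to control for every miRNA that met the abundance criterion, sorted from lowest to highest, in 4 panels (each line at 1 and 5 ng/mL); hsa-miR-29a-3p is red and dashed lines mark 1.4-fold either way. hsa-miR-29a-3p lies at place 44 of 137 and 38 of 141 in A549 and at 12 of 120 and 30 of 125 in BEAS-2B, and only the point of BEAS-2B at 1 ng/mL lies past the line.

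The direction did not depend on the scaling, but the size did. Over 7 scalings (TMM, TMM within each line, DESeq2 size factors, total count, total count without hsa-miR-21-5p, quantile and none), hsa-miR-29a-3p was below its control in all 4 comparisons each time. The log2 ratio ran from -0.51 to -0.28 in A549 at 1 ng/mL, with 1 scaling past 1.4-fold, and from -0.63 to -0.32 at 5 ng/mL, with 4. In BEAS-2B it ran from -1.21 to -0.48 at 1 ng/mL, with 6 past, and from -0.80 to -0.19 at 5 ng/mL, with 3. Under total-count scaling the median of all miRNAs itself shifted to -0.46 and -0.49 in BEAS-2B, so relative to that median the ratios of -1.05 and -0.80 are smaller than they appear.

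**Figure D3:**
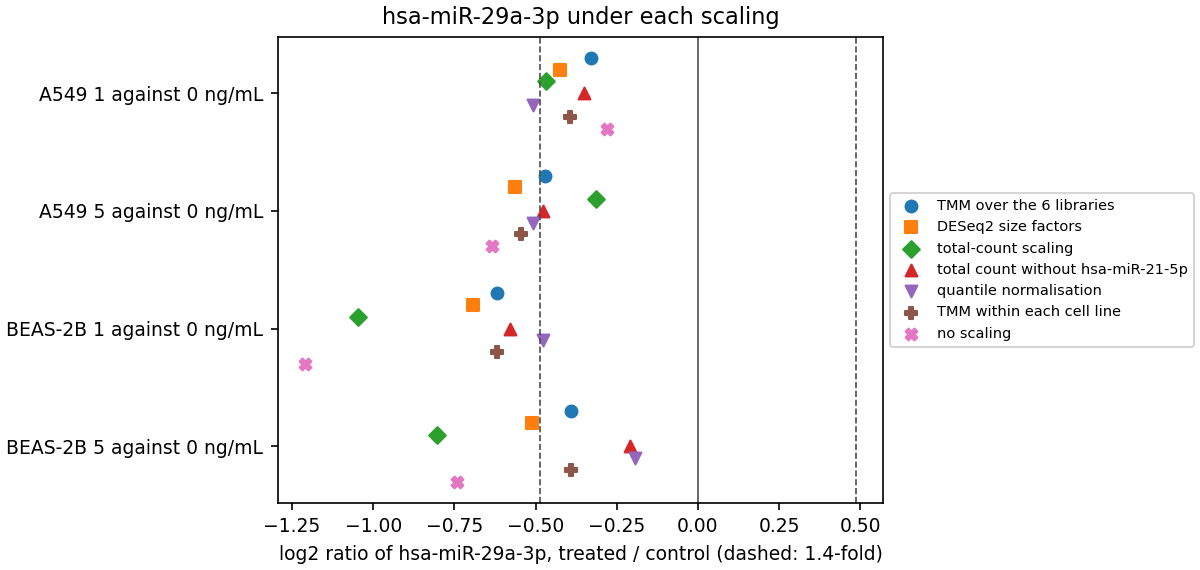
Log2 ratio of hsa-miR-29a-3p to the control under 7 scalings in each of the 4 comparisons, with dashed lines at 1.4-fold; each point is 1 scaling of the same pair of libraries. All 28 points lie below 0, from -1.21 to -0.19.

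The 2 doses can be compared without the control library. From 1 to 5 ng/mL, hsa-miR-29a-3p had a log2 ratio of -0.14 (-0.21 to -0.08) in A549 and 0.23 (0.15 to 0.30) in BEAS-2B. Neither passed 1.4-fold, so hsa-miR-29a-3p, the only member that could be called, was not called, where 16.9% and 6.61% of miRNAs were. The A549 value changed sign under total-count scaling (0.15) and was 0.00 under quantile normalisation, so no order of the 2 doses can be given in A549. The BEAS-2B value was above 0 under all 7 scalings, from 0.18 to 0.47.

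hsa-miR-29b-3p, made from both loci, was read 175, 183 and 114 times in A549 and 149, 44 and 93 times in BEAS-2B. Its normalised count was 182, 184 and 133 in A549, against 115, 50.9 and 91.2 in BEAS-2B, so it never reached the abundance criterion. The BEAS-2B library at 1 ng/mL was the lowest of the 6, and under this scaling the 3 A549 libraries were above the 3 BEAS-2B libraries.

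In BEAS-2B at 1 ng/mL, the log2 ratio of hsa-miR-29b-3p to the control was -1.15 (-1.69 to -0.68), and it stayed between -1.74 and -1.11 over the 7 scalings. In A549 at the same dose it was 0.01 (-0.29 to 0.32), with both signs among the scalings (-0.23 to 0.06). At 5 ng/mL it was -0.45 (-0.81 to -0.11) in A549 and -0.33 (-0.72 to 0.05) in BEAS-2B, where the interval includes 0 and the scalings gave -0.73 to -0.15. Between the 2 doses, the 5 ng/mL library exceeded the 1 ng/mL library by a log2 ratio of 0.83 (0.31 to 1.39) in BEAS-2B, above 0 under each scaling, while in A549 the ratio was -0.47 (-0.82 to -0.12). The A549 log2 ratio exceeded the BEAS-2B log2 ratio at 1 ng/mL by 1.18 (0.61 to 1.75) without the added 1, and by 0.99 to 1.80 over the scalings. At 5 ng/mL this difference was -0.13 (-0.63 to 0.38), too imprecise to give a direction.

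hsa-miR-29c-3p, the scarcest of the 3, was read 33, 12 and 14 times in A549 and 20, 2 and 15 times in BEAS-2B. Normalised counts were 34.3, 12.0 and 16.3 in A549, against 15.4, 2.32 and 14.7 in BEAS-2B. The A549 control was the highest library and BEAS-2B at 1 ng/mL the lowest, there under the limit of 3 counts that a count of 0 allows (a normalised 3.47). The log2 ratio to the control was -1.44 (-2.60 to -0.52) and -1.03 (-2.09 to -0.13) in A549. In BEAS-2B it was -2.31 (-5.87 to -0.69) at 1 ng/mL, and at 5 ng/mL -0.06 (-1.14 to 0.97), where the depth did not allow a change to be seen. Over the scalings the BEAS-2B values ran from -2.81 to -2.28 and from -0.45 to 0.11.

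Shares of the family within a library need no scaling between libraries. hsa-miR-29b-3p took 3.18% (2.74 to 3.68), 4.02% (3.47 to 4.63) and 3.22% (2.67 to 3.86) of the miR-29 3p reads in A549 at 0, 1 and 5 ng/mL. In BEAS-2B it took 2.44% (2.06 to 2.85), 1.68% (1.22 to 2.25) and 2.54% (2.05 to 3.10). At 1 ng/mL its share was thus the highest of the A549 libraries and the lowest of the BEAS-2B libraries.

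Set against hsa-miR-29a-3p in the same library, hsa-miR-29b-3p changed by 1.27-fold (1.02 to 1.58) from the control to 1 ng/mL in A549 and by 0.683-fold (0.475 to 0.965) in BEAS-2B. At 5 ng/mL the corresponding values were 1.01 (0.788 to 1.29) and 1.04 (0.794 to 1.37), so no difference between the 2 members was seen there, and the intervals allow one of up to 1.37-fold. Between the lines, the ratio of hsa-miR-29b-3p to hsa-miR-29a-3p was 1.32-fold (1.05 to 1.66) greater in A549 without TGF-β1, 2.45-fold (1.75 to 3.50) greater at 1 ng/mL and 1.28-fold (0.960 to 1.71) at 5 ng/mL. The ratio of hsa-miR-29c-3p to hsa-miR-29a-3p at 1 ng/mL was 0.441-fold (0.207 to 0.878) that of the control in A549 and 0.231-fold (0.0262 to 0.953) in BEAS-2B. At 5 ng/mL it was 0.658-fold (0.325 to 1.27) in A549 and 1.25-fold (0.597 to 2.58) in BEAS-2B, and both of these intervals include 1.

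The share of hsa-miR-29c-3p among reads of hsa-miR-29a-3p and hsa-miR-29c-3p, the pair that 1 base tells apart, was 0.620%, 0.274% and 0.409% in A549, against 0.335%, 0.0777% and 0.420% in BEAS-2B. The lowest share was again that of BEAS-2B at 1 ng/mL.

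The 5p arms, the strands usually discarded, were read 29, 44 and 26 times in A549 and 52, 23 and 37 times in BEAS-2B in all, with hsa-miR-29b-2-5p included. They made up between 0.525% and 1.00% of all miR-29 reads. Over the 6 libraries these 211 reads were hsa-miR-29c-5p (118, 55.9%), hsa-miR-29b-1-5p (60, 28.4%), hsa-miR-29a-5p (29, 13.7%) and hsa-miR-29b-2-5p (4, 1.90%). The order is the reverse of the 3p arms, where hsa-miR-29a-3p led and hsa-miR-29c-3p came last.

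**Figure D4:**
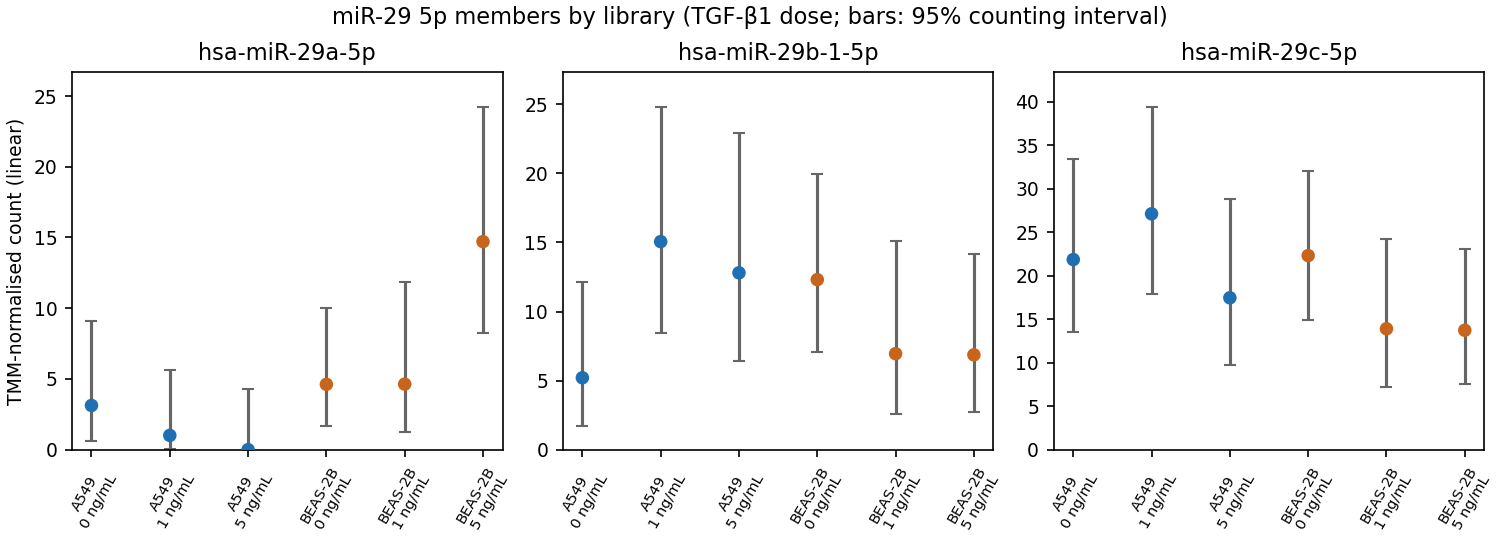
TMM-normalised count (linear axis, 1 panel per 5p member) in each of the 6 libraries, by cell line (A549 blue, BEAS-2B orange) and TGF-β1 dose in ng/mL; points are single libraries and bars the exact 95% Poisson interval for counting error only. All rest on 0 to 29 reads, and most intervals of neighbouring libraries overlap.

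hsa-miR-29a-5p, partner of the most abundant member, was read 3, 1 and 0 times in A549 and 6, 4 and 15 times in BEAS-2B. No ratio is given in A549, where all 3 libraries were at or under the limit of 3 counts. In BEAS-2B its log2 ratio was 0.00 (-2.26 to 2.08) after the lower dose and 1.48 (0.22 to 3.33) after the higher dose. It was thus highest in the BEAS-2B library at 5 ng/mL, in which its partner hsa-miR-29a-3p was below the control.

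hsa-miR-29b-1-5p, from the chromosome 7 locus, was read 5, 15 and 11 times in A549 and 16, 6 and 7 times in BEAS-2B. Its log2 ratio to the control was 1.37 (0.00 to 3.35) and 1.15 (-0.34 to 3.18) in A549 and -0.74 (-2.47 to 0.60) and -0.76 (-2.37 to 0.52) in BEAS-2B. Both treated libraries lay above the control in A549 and below it in BEAS-2B, although 3 of the 4 intervals reach past 0 and the other touches it.

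hsa-miR-29c-5p, from the chromosome 1 locus, was read 21, 27 and 15 times in A549 and 29, 12 and 14 times in BEAS-2B. The log2 ratio to the control was 0.30 (-0.57 to 1.21) and -0.31 (-1.38 to 0.70) in A549 and -0.65 (-1.79 to 0.33) and -0.66 (-1.73 to 0.27) in BEAS-2B. Each interval includes 0, so no change was detectable at this depth.

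The use of the 2 arms differed greatly between hairpins. From MIR29A there were 867 reads of the 3p arm for each read of the 5p arm, a 5p share of 0.115%, with library values from 0% (0 of 3409, with an upper bound of 0.108%) to 0.420% (0.235 to 0.692). From MIR29C the 5p arm made up 118 of 214 reads, or 55.1% (48.2 to 61.9), and exceeded the 3p arm in 4 of the 6 libraries. The pair of miR-29b hairpins gave 7.79% (6.05 to 9.83).

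Among 189 hairpins with both arms listed and at least 100 reads in all, the median share of the minor arm was 2.21%. The minor arm of MIR29A, at 0.115%, was smaller than in all but 32 of them, and that of MIR29C, at 44.9%, was larger than in 177. The 2 paralogues whose 3p arms differ by C10U therefore lay toward opposite ends of this range. The MIR29C value rests on few reads and on the assignment of hsa-miR-29c-3p, and reads given to hsa-miR-29a-3p instead would raise its 5p share.

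**Figure D5:**
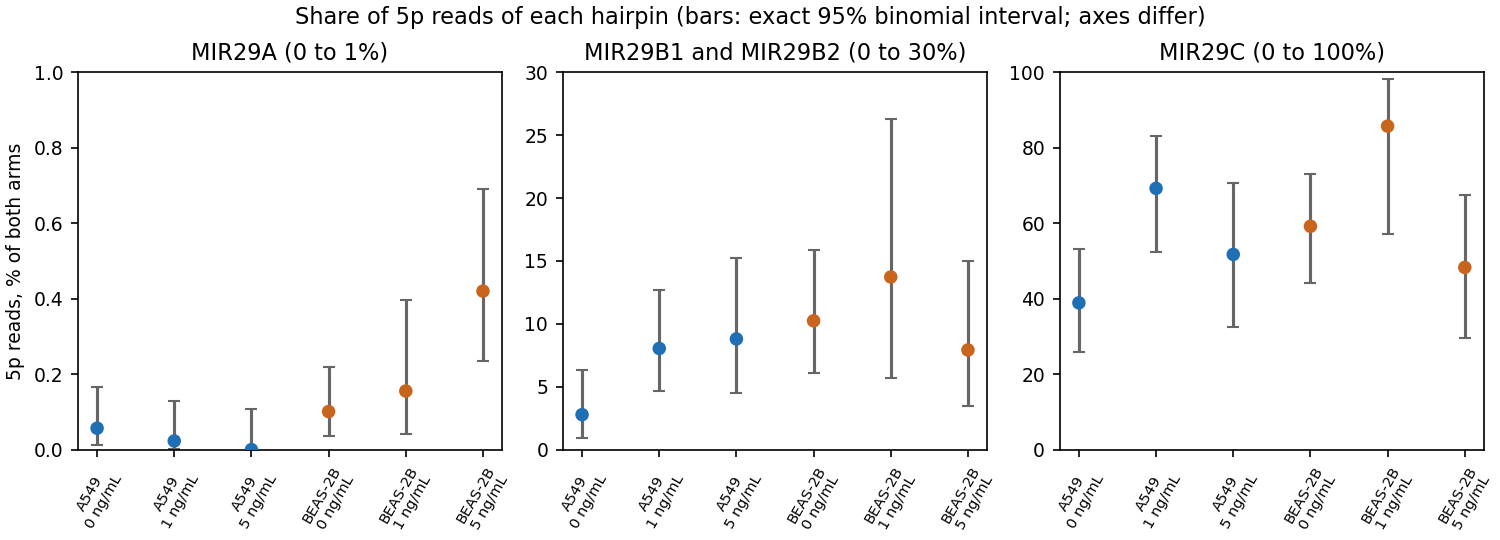
Share of 5p reads among all reads of MIR29A (axis to 1%), of MIR29B1 and MIR29B2 together (axis to 30%) and of MIR29C (axis to 100%) in each library, by cell line and TGF-β1 dose in ng/mL; points are single libraries and bars exact 95% binomial intervals. MIR29A stays at or below 0.420%, the miR-29b hairpins lie between 2.78% and 13.7%, and MIR29C between 38.9% and 85.7%.

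By library, the 5p share of MIR29C in A549 was 38.9% (25.9 to 53.1), 69.2% (52.4 to 83.0) and 51.7% (32.5 to 70.6). In BEAS-2B it was 59.2% (44.2 to 73.0), 85.7% (57.2 to 98.2) and 48.3% (29.4 to 67.5). The highest share of each line was at 1 ng/mL, and its interval overlapped those of the other libraries of that line. In A549 the overlap with the control was narrow, at 52.4 to 83.0 against 25.9 to 53.1. Overlap of separate intervals does not decide whether the shares differ, and the difference was not tested. In BEAS-2B the share at 1 ng/mL rests on 14 reads. For MIR29A the 5p share was 0.0567%, 0.0229% and 0% in A549, against 0.101%, 0.155% and 0.420% in BEAS-2B. The 3 BEAS-2B values, which rest on 4 to 15 reads, lay above the 3 A549 values, which rest on 0 to 3.

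The 5p arms also show which miR-29b hairpin a 5p read came from. They cannot give the source of the hsa-miR-29b-3p reads, since the use of the arms differed between hairpins. Of the 64 reads of the 2 miR-29b 5p arms, 60 were hsa-miR-29b-1-5p (93.8%, 84.8 to 98.3), the product of chromosome 7, and hsa-miR-29b-2-5p had 0 or 1 read per library. Over all 5p arms, the chromosome 7 hairpins gave 27.6%, 36.4% and 42.3% of reads in A549, against 42.3%, 43.5% and 59.5% in BEAS-2B. These shares need no scaling, but each rests on 23 to 52 reads. They describe arms as read and not transcription of a locus.

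Between the lines, the level of hsa-miR-29a-3p depended on the dose and the scaling. A549 had a log2 ratio to BEAS-2B of 0.27 (0.21 to 0.32) without TGF-β1, 0.56 (0.49 to 0.63) at 1 ng/mL and 0.19 (0.12 to 0.25) at the higher dose. The median over all miRNAs was 0.27, 0.19 and 0.18. Only the ratio at 1 ng/mL passed 1.4-fold, where 64.3% of miRNAs were called and 38.5% were called as higher in A549. At 0 and 5 ng/mL hsa-miR-29a-3p, the only member that could be called, was not called, against 68.9% and 67.8% of miRNAs called. Across 6 scalings (TMM within line cannot compare lines) the ratio kept its sign at 1 ng/mL (0.17 to 0.76), with 2 of the 6 past 1.4-fold, but not without TGF-β1 (-0.27 to 0.27) or at 5 ng/mL (-0.11 to 0.22).

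For hsa-miR-29b-3p the log2 ratio of A549 to BEAS-2B was 0.66 (0.34 to 0.99), 1.83 (1.37 to 2.36) and 0.54 (0.13 to 0.95) at 0, 1 and 5 ng/mL. Over the 6 scalings it ran from 0.13 to 0.66 without TGF-β1, with 3 past 1.4-fold, from 1.31 to 2.03 at 1 ng/mL, with 6, and from 0.23 to 0.57 at 5 ng/mL, with 3. For hsa-miR-29c-3p it was 1.11 (0.31 to 2.04), 1.98 (0.21 to 5.58) and 0.14 (-1.01 to 1.30). Its scalings gave 0.60 to 1.11, 1.74 to 2.12 and -0.11 to 0.17. All 3 members with the shared seed were higher in A549 than in BEAS-2B at 1 ng/mL, the dose at which each had its lowest BEAS-2B level.

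Whether the response of hsa-miR-29a-3p itself differed between the lines was not settled. The A549 log2 ratio minus the BEAS-2B log2 ratio was 0.29 (0.20 to 0.38) after the lower dose and -0.08 (-0.17 to 0.01) after the higher dose. Over the 7 scalings these differences ran from -0.03 to 0.93 and from -0.31 to 0.49.

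Of 156 other miRNAs that met the abundance criterion somewhere, the 3 whose ND followed that of hsa-miR-29a-3p most closely over the 6 libraries were hsa-miR-30c-5p (Pearson r 0.9501), hsa-miR-23b-3p (0.934) and hsa-miR-423-5p (0.918). hsa-miR-30c-5p was read 3194, 2231 and 1831 times in A549 and 3077, 1412 and 1603 times in BEAS-2B. hsa-miR-23b-3p was read 2154, 1454 and 1151 times and 1757, 868 and 1209 times. After normalisation both were highest in the control of each line. In BEAS-2B hsa-miR-23b-3p was lowest at 1 ng/mL, as was hsa-miR-29a-3p. Under the main scaling hsa-miR-30c-5p was lowest at 5 ng/mL, with log2 ratios to the control of -0.53 and -0.59 at 1 and 5 ng/mL. By unscaled reads it was lowest at 1 ng/mL, so the order of its 2 doses depended on the scaling. The libraries share scaling factors, depth and the control of each line, and the 3 were picked as the most alike.

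Other miRNAs described in fibrosis were set beside the family. Of 12 described as restraining it, 5 or 6 met the abundance criterion. In A549, 1 was higher (hsa-miR-200b-3p, an epithelial miRNA) and 2 lower (hsa-miR-30a-5p and hsa-miR-30c-5p) at 1 ng/mL, and 1 was higher (hsa-let-7d-5p) and 3 lower (hsa-miR-101-3p with the same pair) at 5 ng/mL. In BEAS-2B, 0 were higher at either dose, and 2 (again that pair) and 1 (hsa-miR-30c-5p) were lower. Over all miRNAs that met the criterion, 21.9% and 26.2% were called as lower in A549, against 13.3% and 16% in BEAS-2B. The medians were -0.09 and -0.64 in A549, against -0.21 and -0.41 in BEAS-2B, all below those of all miRNAs except at 1 ng/mL in A549, and below 0 under all 7 scalings. In A549 at 1 ng/mL hsa-miR-200b-3p met the criterion only through the treated library, with 139 reads in the control against 271. Its place as higher was thus fixed by that criterion, and it also entered the median of that comparison.

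In this list hsa-miR-30c-5p, the miRNA most like hsa-miR-29a-3p across libraries, had log2 ratios of -0.57 and -0.64 in A549, against -0.53 and -0.59 in BEAS-2B. Under the main scaling it passed 1.4-fold in all 4 comparisons, where hsa-miR-29a-3p passed in 1. This contrast depends on the scaling, since hsa-miR-29a-3p also passed at 5 ng/mL in both lines under DESeq2 size factors.

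Of 10 miRNAs described as promoting fibrosis or raised by TGF-β1, 4 met the abundance criterion in A549 and 5 in BEAS-2B. In A549, 3 were higher and 0 lower at each dose (hsa-miR-143-3p, hsa-miR-181a-5p and hsa-miR-181b-5p). In BEAS-2B, 3 were higher at 1 ng/mL (hsa-miR-21-5p, hsa-miR-181a-5p and hsa-miR-181b-5p) and 4 at 5 ng/mL, with hsa-miR-424-5p added, and 0 were lower. Over all miRNAs that met the criterion, 27% were called as higher at each dose in A549, against 15.8% and 20% in BEAS-2B. Their medians were 1.30 and 1.33 in A549, against 0.91 and 1.01 in BEAS-2B, above 0 under all 7 scalings, but the members went both ways. hsa-miR-21-5p was at -0.32 in A549 at 5 ng/mL, and hsa-miR-155-5p was at -0.46 and -0.44 in BEAS-2B. hsa-miR-143-3p met the criterion in A549 only through the treated libraries, with 148 reads in the control against 1658 and 1106, so its place among the higher ones was fixed by that criterion. It also entered both A549 medians, each over 4 miRNAs, and raised them.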

How the data were processed

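Raw read counts per mature miRNA were deposited by the authors as whole numbers, 1 library per cell line and dose, from total RNA and a small RNA library kit. The processing notes of the submitters name Bowtie2 and bedtools; their roles, the build, the annotation release, the use of strand and the treatment of reads matching several miRNAs were not given in the sources used here. The normalisation behind the ND of the study was not stated for these counts. Counts were scaled here by TMM over all 6 libraries with edgeR 4.0.16 in R 4.3.3, and 255 normalised counts correspond to an ND of 8. The ND took a pseudocount of 1, so a log2 ratio understates the change of scarce miRNAs, while its interval is on normalised counts without it.

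The members were selected by name, and the members and lists were chosen with earlier results of these data known. With 1 library per group no test was run and no p-value computed. Ratios carry exact Clopper-Pearson conditional binomial intervals, levels exact Poisson intervals and shares exact binomial intervals, all at 95%. The interval of a difference between the lines' log2 ratios is a normal approximation from the counts. Molecular identifiers were not mentioned, so reads are not independent molecules. No ratio was given where both libraries had 3 counts or fewer or where either was at 0; 3 counts are 2.31 to 3.49 normalised counts. The interval calculation was tested on simulated Poisson counts with known library sizes. That check does not cover the scaling, the abundance criterion or variation between cultures.

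The miRNAs named are all 6 members, hsa-miR-29b-2-5p, the 3 most correlated with hsa-miR-29a-3p, and list members where a sentence turns on them. Mature sequences and hairpin positions were from RefSeq (GRCh38.p14), and host genes and 3′ untranslated regions from GENCODE release 29, using for each gene the transcript with the longest coding sequence. Alternatives were DESeq2 1.42.0 size factors, total count with and without hsa-miR-21-5p, quantile normalisation with limma 3.58.1, TMM within line, no scaling, ND minimums of 7, 9 or none, a fold of 2, and pseudocounts of 0.5 and 10. Python 3.11.15, numpy 2.4.6, pandas 2.3.3, scipy 1.17.1 and matplotlib 3.10.9 were used.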

Additional observations from a re-analysis of the deposited data

Results flagged for a closer look

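hsa-miR-29b-1-5p, which never met the abundance criterion, had both treated libraries above the control in A549 and both below it in BEAS-2B. Counting error does not settle a direction in BEAS-2B, or in A549 at 5 ng/mL. Its log2 ratio to the control was 1.37 and 1.15 in A549 at 1 and 5 ng/mL and -0.74 and -0.76 in BEAS-2B, so that at 5 ng/mL the A549 log2 ratio was 1.91 above the BEAS-2B log2 ratio. All values rest on 5 to 16 reads. The difference was not tested, since each group had 1 library.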

How the results depend on the processing

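No paired analysis was possible because the labels carry no replicate numbers and each group had 1 library. For hsa-miR-29a-3p, values are given in the order A549 at 1 and 5 ng/mL, then BEAS-2B at 1 and 5 ng/mL, against the control. DESeq2 size factors gave -0.42, -0.56, -0.69 and -0.51, and -0.42, -0.57, -0.71 and -0.51 for the summed 3p members. TMM within line gave -0.40 and -0.55 in A549 (sum -0.39 and -0.55). Total-count scaling gave -0.47, -0.32, -1.05 and -0.80 (sum -0.46, -0.32, -1.06 and -0.80). Quantile normalisation gave -0.51 in A549 at 1 ng/mL and -0.48 and -0.19 in BEAS-2B (sum -0.50, -0.50 and -0.20). Without scaling the values were -0.63 in A549 at 5 ng/mL and -1.21 and -0.74 in BEAS-2B (sum -0.64, -1.22 and -0.74), and without hsa-miR-21-5p in the total -0.21 in BEAS-2B at 5 ng/mL (sum -0.21).

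From 1 to 5 ng/mL, A549 gave 0.15 by total count, 0.00 by quantile normalisation and -0.35 without scaling, and BEAS-2B gave 0.37 by total count without hsa-miR-21-5p and 0.47 without scaling. A549 against BEAS-2B at 0, 1 and 5 ng/mL gave -0.17, 0.76 and -0.061 without scaling, 0.20, 0.17 and -0.11 by quantile normalisation, and 0.19, 0.42 and -0.076 by total count without hsa-miR-21-5p. Total count gave -0.27 and 0.31 at 0 and 1 ng/mL, and DESeq2 0.48 at 1 ng/mL.

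The number of members called was 0, 0, 1 and 0. It was 1 in A549 at 5 ng/mL under DESeq2, TMM within line, quantile normalisation or no scaling, 1 in A549 at 1 ng/mL under quantile normalisation, and 1 in BEAS-2B at 5 ng/mL under DESeq2, total count or no scaling. In BEAS-2B at 1 ng/mL it was 0 under quantile normalisation or a fold of 2. With no ND minimum it was 2, 2, 5 and 3. The cause of these moves was not tested. Of 59 alternative log2 ratios of hsa-miR-29a-3p, 25 stayed within counting error of the reported value and 34 moved. Of 24 for the summed 3p level, 7 stayed and 17 moved. Of 48 alternative numbers of members called, 34 were the same and 14 moved. Of 268 alternative log2 ratios of the other members, whose counting intervals are wider, 262 stayed and 6 moved. Depth limits the 5p arms and hsa-miR-29c-3p, which had at most 33 reads in a library.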
